A study of Homo sapiens with 6 samples.

Results

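The proteins that license replication origins and build the replication fork are followed here through 45 genes, listed by symbol: the MCM2–7 helicase with MCM8 and MCM10, the origin recognition complex, the loading factors CDC6 and CDT1 with their inhibitor geminin, the DDK kinase, CDC45 and GINS, the sliding clamp PCNA with its loader, the replicative polymerases with primase, the flap and ligation enzymes FEN1 and LIG1, RPA and the histone chaperone CAF-1. Each of the 45 symbols matches 1 Ensembl gene among the 58395 genes of the tables, and all 45 hold enough counts to be tested. HCT116 is an established line of human colorectal cancer cells. RNA is sequenced from 3 shControl replicates, which express a non-target hairpin, and from 3 shSTBD1 replicates, which express a hairpin against STBD1, a glycogen-binding protein. Cells of both groups are infected with a lentiviral hairpin vector and then selected. The methods name puromycin or G418 for selection and do not say which was used for the hairpin lines. Each group rests on 1 hairpin sequence, and no library without a hairpin is analysed here. A p-value therefore measures the spread between replicates that share 1 hairpin.

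Replication starts in 2 steps that are kept apart in the cell cycle. In G1, the origin recognition complex, CDC6 and CDT1 load the ring of MCM2 to MCM7 onto DNA, which licenses an origin, and geminin blocks CDT1 afterwards. In S phase, DDK and cyclin-dependent kinases recruit CDC45 and GINS to the ring, which then unwinds DNA ahead of the polymerases. Many of these genes are transcribed late in G1 under E2F factors, so their transcripts are commonly read as a proliferation signature. In bulk RNA, a smaller share of cells in one phase and less transcript per cell cannot be told apart.

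The libraries hold between 17689097 and 21668274 expected counts, the estimated reads per gene that RSEM gives. STBD1, the targeted gene, is at 16.2, 15.7 and 14.4 CPM (counts relative to library size, scaled by TMM) in shControl and at 11.6, 9.06 and 9.18 CPM in shSTBD1, a log2 fold change of -0.64 (SE 0.098, adjusted p = 2.91e-04 by edgeR). Over all 15566 genes tested, 8.22% are higher and 7.54% are lower in shSTBD1 at an adjusted p under 0.05, the threshold used throughout, and the median log2 fold change is 0.0023. Of 8 colon epithelial markers, EPCAM, CDH1, KRT8, KRT18 and KRT19 are at or above 1 TPM (RSEM's transcript abundance, a level per length) in all libraries, while VIL1, LGALS4 and CEACAM5 are below 1 TPM in all. The summed epithelial level runs from 2851 to 2885 TPM in shControl and from 3236 to 3373 TPM in shSTBD1, with CDH1 and the keratins called higher. Leukocyte and endothelial markers are all below 1 TPM, and of 4 fibroblast markers COL1A1 alone is above it, at 14.6 to 20.6 TPM.

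Most replication genes show no difference past the threshold, and MCM6 stands apart. Of the 45 genes, 6 are higher in shSTBD1 (13.3%, against 8.22% of all genes tested) and 4 are lower (8.89%, against 7.54%). The higher genes are MCM6, ORC3, CDC6, PCNA, RFC2 and RFC5, and the lower genes are MCM2, POLA1, POLE and FEN1. The median log2 fold change of the 45 is -0.0023, with 22 above 0 and 23 below. Apart from MCM6, the 9 genes past the threshold differ by 0.11 to 0.17 on the log2 scale, against a median of 0.22 over all 2453 genes called. The CPM values of the groups do not overlap for 16 of the 45 genes (35.6%, against 33.6% of all genes tested). The share that is higher and the share that is lower both lie near those of all genes, as does the share with separate groups. The sizes differ: the median absolute log2 fold change is 0.053 for the 45 genes, against 0.11 for all genes tested. The 45 genes also have a higher median level, 39.2 TPM against 11.7 TPM, and the shares are not matched for level.

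**Figure D1:**
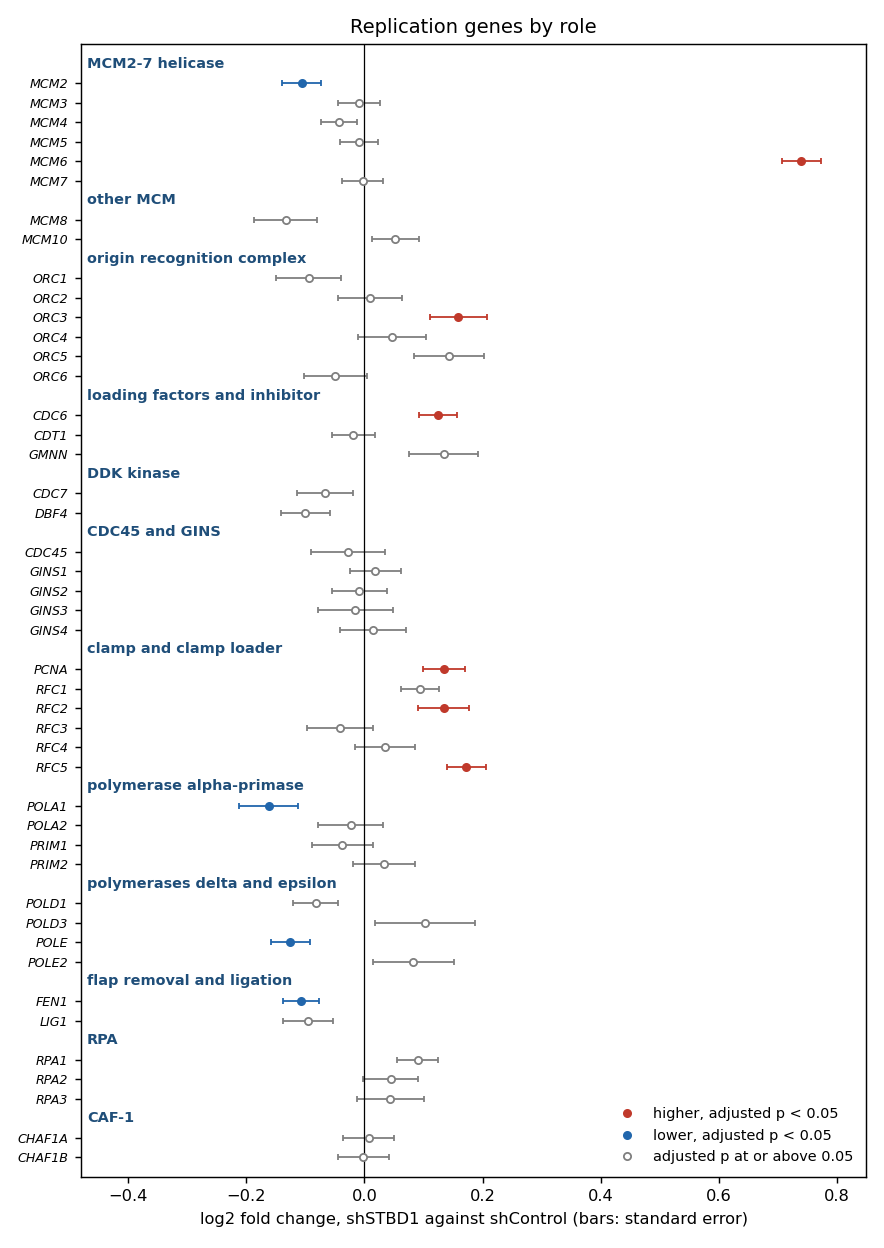
Log2 fold change of shSTBD1 against shControl for the 45 replication genes, grouped by role, from edgeR with TMM scaling (points, with the standard error as bars). MCM6 lies at 0.74, while the other 44 genes lie between -0.16 and 0.17, with the filled points marking the 10 genes past the threshold.

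The MCM2–7 ring is the core of the replicative helicase, a hexamer that holds 1 copy of each subunit. MCM6 (ENSG00000076003, chr2:135839626-135876443 of GRCh38, minus strand) is at 133, 127 and 128 CPM in shControl and at 215, 214 and 218 CPM in shSTBD1. The lowest shSTBD1 library lies far above the highest shControl library. MCM6 has a log2 fold change of 0.74 (SE 0.032, adjusted p = 7.08e-10 by edgeR), a rise of 67.0% that ranks 2 of 15566 genes by p. It is not the largest change of the experiment, as 63 other called genes have a log2 fold change at or above it. An exact permutation test on its CPM gives p = 0.1, the smallest that 3 libraries against 3 allow. No coding gene overlaps MCM6 in the annotation, and RSEM's posterior standard deviation, which is above 0 where reads could belong to several genes, is 0 for its count.

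None of the other subunits follows it. MCM2, which carries a histone-binding tail, is at 304, 290 and 293 CPM in shControl and at 274, 282 and 267 CPM in shSTBD1, and all shSTBD1 libraries are lower. MCM2 has a log2 fold change of -0.11 (SE 0.033, adjusted p = 0.0368 by edgeR). MCM3, MCM4, MCM5 and MCM7, whose fits are given after their values were seen, do not pass the test. MCM4 and MCM7 form with MCM6 a subcomplex that has helicase activity of its own, and MCM5 sits with MCM2 at the gate through which DNA enters. MCM3 has a log2 fold change of -0.0086 (SE 0.035), MCM4 of -0.043 (SE 0.031), MCM5 of -0.0091 (SE 0.032) and MCM7 of -0.0032 (SE 0.034). In that order, their adjusted p-values by edgeR are 0.907, 0.381, 0.89 and 0.965. The MCM4 groups do not overlap on CPM or on TPM, with all shSTBD1 libraries lower. The signs of MCM3, MCM5 and MCM7 turn positive when the counts are scaled by library size alone.

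Per length, the ring genes differ in transcript level. MCM7 is highest, at 255 to 269 TPM over the 6 libraries, followed by MCM4 at 229 to 243 TPM. MCM3 at 121 to 133 TPM and MCM5 at 111 to 126 TPM overlap, so their order is not resolved. MCM2 is at 96.8 to 109 TPM, and MCM6 comes last in all 6 libraries. The MCM6 level is 43.4, 43.1 and 42.6 TPM in shControl and 71.2, 69.35 and 71.1 TPM in shSTBD1. The gap between MCM6 and MCM2 thus narrows: the ratio of their TPM is 0.396 ± 0.0019 in shControl and 0.708 ± 0.024 in shSTBD1 (SD, n = 3; exact permutation test, p = 0.1).

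The sum of the 6 ring transcripts hides this shift. It is 911.5 ± 6.46 TPM in shControl and 905.3 ± 17.2 TPM in shSTBD1 (SD, n = 3; exact permutation test, p = 0.7). MCM6 makes up 4.78%, 4.69% and 4.68% of that sum in shControl and 7.85%, 7.52% and 8.01% in shSTBD1. Without MCM6, the sum is 868.5 ± 6.46 TPM against 834.8 ± 18.02 TPM (SD, n = 3; exact permutation test, p = 0.1), so the other 5 subunits together are lower in all shSTBD1 libraries. TPM is relative to all other transcripts of a library, and the cause of this difference was not tested.

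**Figure D2:**
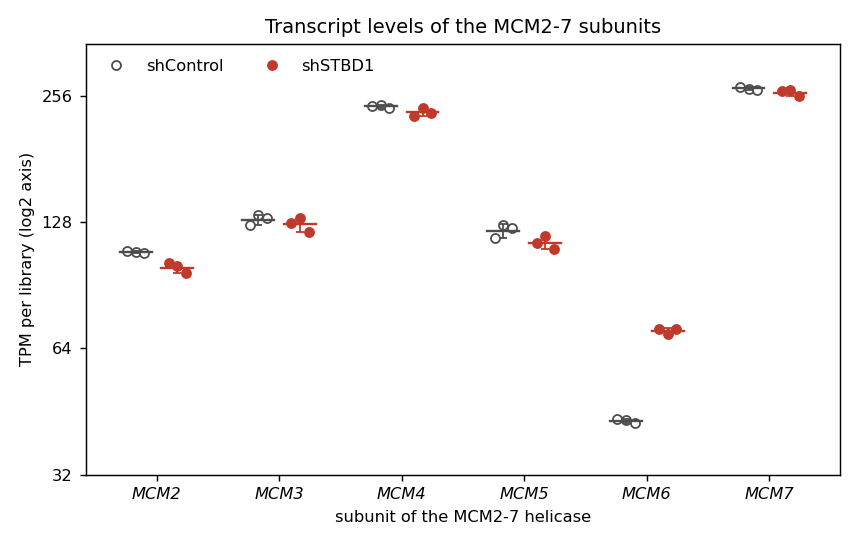
TPM of the 6 MCM2–7 subunits in each library on a log2 axis, with the mean as a line and the standard deviation as a bar (3 libraries per group). MCM6 rises from about 43.0 to 70.5 TPM and is still the lowest subunit, while the groups lie close together for the others.

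MCM6 also carries a stretch of the control hairpin. The study's methods list the non-target hairpin, and 7 of its bases, GTGTCAC, occur once in the 3′ UTR of the canonical MCM6 transcript, in exon 17 of 17 at base 154 of the UTR. MCM8 holds the same 7 bases in exon 19 of 19, at base 2688 of its 3′ UTR. Both sites are shown since they are the only ones among the 45 genes, with the 7 bases in capitals and the strand of the transcript (GRCh38).
MCM6, chr2:135840664-135840692, minus strand: gatggtcctatGTGTCACattcatcacag
MCM8, chr20:5997068-5997096, plus strand: caattgtttctGTGTCACcattgctgatt
MCM8, a helicase of homologous recombination and not a part of the MCM2–7 ring, is at 57.9, 49.8 and 54.8 CPM in shControl and at 49.6, 48.3 and 50.2 CPM in shSTBD1. The groups overlap, and its log2 fold change of -0.13 (SE 0.053, adjusted p = 0.101 by edgeR) is opposite in sign to that of MCM6. Among all tested genes with an annotated 3′ UTR, 18.5% of the 1280 genes with the 7 bases are higher in shSTBD1, against 8.46% of the 11756 genes without them. The shares of lower genes are 8.36% and 8.53%. Genes with the 7 bases make up 9.82% of the tested genes with a 3′ UTR, and these sets were not matched for UTR length or level. Of the 6 genes called higher among the 45, 5 lack the 7 bases. The 7 bases were picked with earlier results of these data known, and their part in the MCM6 difference was not tested. With no library that lacks a hairpin, a higher MCM6 level in shSTBD1 and a lower one in shControl cannot be told apart.

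The promoter windows of MCM2, MCM3, MCM6 and MCM7 share a motif. RefSeq promoter windows (250 bases before to 50 after the gene start, GRCh38.p14) match 39 of the 45 genes, all but MCM4, MCM5, GINS4, POLD3, RPA2 and RPA3. The E2F-type letters TTTCGCGC or TTTGGCGC occur on either strand in 11 of these 39 (28.2%), against 403 of all 35116 promoters (1.15%). The 39 are counted with 1 window per gene, while the 35116 are all RefSeq windows and are not limited to tested genes. The 11 are MCM2, MCM3, MCM6, MCM7, MCM8, CDC6, GINS1, POLA1, POLA2, POLE and POLE2. The shorter letters TTTCGCG or TTTGGCG occur in 16 of 39 (41.0%), against 3.19% of all. The matches in the ring genes are shown with the motif letters in capitals, where a match of one spelling can overlap one of the other on the opposite strand.
MCM6, chr2:135876511-135876606, minus strand: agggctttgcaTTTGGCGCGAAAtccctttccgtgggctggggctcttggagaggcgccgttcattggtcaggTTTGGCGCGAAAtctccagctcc
MCM2, chr3:127598402-127598435, plus strand: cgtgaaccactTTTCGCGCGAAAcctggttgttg
MCM3, chr6:52284728-52284757, minus strand: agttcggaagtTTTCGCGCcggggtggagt
MCM7, chr7:100101388-100101417, minus strand: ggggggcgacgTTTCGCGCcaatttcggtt
MCM6 holds 4 overlapping matches in a pair of places, which begin 152 and 90 bases before the RefSeq start. MCM2 holds a pair of overlapping matches, which begin 2 and 6 bases after the start. The match of MCM3 begins 4 bases before the start and that of MCM7 9 bases before it. Of the 11 genes with the motif, MCM6 and CDC6 are higher, MCM2, POLA1 and POLE are lower, and the other 6 do not pass the test. Of the 28 genes with a window and no match, 4 are higher and 1 is lower, beside 8.22% higher and 7.54% lower of all genes tested. With so few genes, nothing is read from these counts. A match is a run of letters and not a measured binding site.

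MCM10, which helps the assembled helicase to start unwinding, has a log2 fold change of 0.053 (SE 0.040, adjusted p = 0.418 by edgeR). It is expressed at 28.3 to 31.7 TPM over the 6 libraries, above MCM8 at 10.95 to 13.0 TPM.

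The origin recognition complex marks origins and starts the loading of the ring. ORC3 (ENSG00000135336, chr6:87590067-87667453, plus strand), a core subunit that binds ORC2, is at 42.5, 41.7 and 43.3 CPM in shControl and at 45.8, 49.7 and 46.7 CPM in shSTBD1. All shSTBD1 libraries are higher, and ORC3 has a log2 fold change of 0.16 (SE 0.048, adjusted p = 0.034 by edgeR). The ORC3 call holds in 9 of 18 alternative settings and is lost in DESeq2, with an adjusted p of 0.15. The other 5 subunits do not pass the test, with log2 fold changes from -0.094 for ORC1 to 0.14 for ORC5. ORC1, an ATPase subunit whose level varies over the cell cycle, and ORC2 are the lowest of the complex per length, at 17.0 to 20.8 and 17.2 to 22.0 TPM, and overlap. ORC6, the small subunit that joins the core loosely, is the highest at 36.2 to 42.6 TPM but overlaps with ORC4, its neighbour in the order.

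Of the loading factors and their inhibitor, CDC6 alone passes the test. CDC6 (ENSG00000094804, chr17:40287879-40304657, plus strand), the ATPase that closes the complex around DNA, is at 132, 130 and 128 CPM in shControl and at 143, 143 and 141 CPM in shSTBD1. The groups are well separated for a small change: CDC6 has a log2 fold change of 0.12 (SE 0.032, adjusted p = 0.0135 by edgeR), a rise of 9.04%. CDT1, which brings the ring to the origin, has a log2 fold change of -0.019 (SE 0.037, adjusted p = 0.783 by edgeR). GMNN, which encodes geminin, has one of 0.13 (SE 0.059, adjusted p = 0.136 by edgeR). Its CPM spreads from 46.75 to 57.0 in shControl and overlaps with the 55.5 to 58.6 of shSTBD1.

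No gene of the firing step passes the test. DBF4, the regulatory subunit of DDK, is at 62.9, 61.2 and 59.8 CPM in shControl and at 58.0, 56.0 and 57.7 CPM in shSTBD1. Its groups do not overlap, yet the log2 fold change of -0.0998 (SE 0.042) has an adjusted p of 0.116 by edgeR. DBF4 overlaps the gene SLC25A40 on the opposite strand, and the posterior standard deviation of its count is 0. CDC7, the kinase subunit, lies in the same direction, with a log2 fold change of -0.066 (SE 0.048, adjusted p = 0.381 by edgeR). CDC45, which joins the ring to form the active helicase, is at 34.4, 40.0 and 41.6 CPM in shControl and at 36.9, 37.75 and 39.0 CPM in shSTBD1. The shSTBD1 values fall inside the shControl range, with a log2 fold change of -0.028 (SE 0.063, adjusted p = 0.82 by edgeR). GINS1 to GINS4, the 4 subunits that lock CDC45 onto the ring, lie between -0.015 and 0.019 on the log2 scale. None of these 5 genes reaches an unadjusted p under 0.05.

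Of the 6 genes of the sliding clamp and its loader, 3 are higher (against 8.22% of all genes tested) and none is lower, and all 3 calls are lost in the settings that use TPM or effective length. PCNA (ENSG00000132646, chr20:5114953-5126626, minus strand), the ring that tethers polymerases to DNA, is at 260, 280 and 281 CPM in shControl and at 302, 307 and 293 CPM in shSTBD1. All shSTBD1 libraries are higher, and PCNA has a log2 fold change of 0.14 (SE 0.036, adjusted p = 0.0159 by edgeR). At 271 to 323 TPM it is the most abundant transcript of all 45 genes.

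RFC1 to RFC5 form the loader that opens PCNA. RFC5 (ENSG00000111445, chr12:118013588-118033130, plus strand) is at 108, 106 and 108 CPM in shControl and at 120, 123 and 120 CPM in shSTBD1. It has a log2 fold change of 0.17 (SE 0.033, adjusted p = 0.00199 by edgeR), the smallest p of the set after MCM6. WSB2 overlaps RFC5 on the opposite strand, and the posterior standard deviation of the RFC5 count is 0.0063% of it. RFC2 (ENSG00000049541, chr7:74231499-74254458, minus strand) is at 56.1, 56.4 and 52.0 CPM in shControl and at 60.2, 60.05 and 60.5 CPM in shSTBD1. RFC2 has a log2 fold change of 0.13 (SE 0.044, adjusted p = 0.0473 by edgeR), just inside the threshold. The RFC2 call holds in 6 of 18 alternative settings and is lost in DESeq2, with an adjusted p of 0.178, and its TPM of 46.5 to 52.1 in shControl overlaps with 52.06 to 53.0 in shSTBD1. RFC1, the large subunit, is just outside it, with a log2 fold change of 0.094 (SE 0.033, adjusted p = 0.0614 by edgeR) and groups that do not overlap. RFC3 and RFC4 have log2 fold changes of -0.041 (SE 0.056) and 0.035 (SE 0.051), and neither passes the test. Whether the subunits of the loader differ from each other was not tested. Per length, the loader falls in the order RFC5, RFC4, RFC2, RFC1 and RFC3, with no overlap between neighbours.

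Among the polymerases, the catalytic subunits of alpha and epsilon are lower. POLA1 (ENSG00000101868, chrX:24693873-24996986, plus strand), which extends the primers that primase makes, is at 71.0, 61.1 and 65.9 CPM in shControl and at 58.7, 59.0 and 59.1 CPM in shSTBD1. POLA1 has a log2 fold change of -0.16 (SE 0.050, adjusted p = 0.0373 by edgeR). The shSTBD1 values are nearly equal while shControl spreads, and the groups overlap on TPM, at 13.8 to 17.2 and 12.7 to 13.9. The POLA1 call holds in 7 of 18 alternative settings, and without shControl replicate 1 the change shrinks to -0.11, with an adjusted p of 0.116. Its partner subunit POLA2 and the primase genes PRIM1 and PRIM2 have log2 fold changes of -0.023 (SE 0.055), -0.037 (SE 0.052) and 0.034 (SE 0.052).

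POLE (ENSG00000177084, chr12:132623753-132687376, minus strand), the leading-strand polymerase, is at 273, 266 and 257 CPM in shControl and at 239, 244 and 246 CPM in shSTBD1. POLE has a log2 fold change of -0.13 (SE 0.032, adjusted p = 0.015 by edgeR), a decrease in all shSTBD1 libraries. POLE2, its second subunit, has a log2 fold change of 0.083 (SE 0.069, adjusted p = 0.458 by edgeR). POLD1, the catalytic subunit of the lagging-strand polymerase, has one of -0.082 (SE 0.038, adjusted p = 0.156 by edgeR) that turns positive on TPM, and POLD3, an accessory subunit, has one of 0.10 (SE 0.085, adjusted p = 0.46 by edgeR). POLD3 has the lowest mean level of the 45 genes, at 9.65 to 12.6 TPM, a range that overlaps with MCM8, and its standard error is the widest.

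Okazaki fragments are joined after FEN1 cuts the displaced flap and LIG1 seals the nick. FEN1 (ENSG00000168496, chr11:61792911-61797238, plus strand) is at 182, 182 and 179 CPM in shControl and at 165, 171 and 167 CPM in shSTBD1. The groups lie apart, with a log2 fold change of -0.11 (SE 0.031, adjusted p = 0.0262 by edgeR). The FEN1 call holds in 9 of 18 alternative settings, among them 1 of the 6 fits that leave out 1 library. FADS2 overlaps FEN1 on the same strand, and the posterior standard deviation of the FEN1 count is 0. LIG1 has a similar log2 fold change of -0.096 (SE 0.042), but shControl replicate 2, at 107 CPM, lies within the shSTBD1 range of 107 to 109, and the adjusted p is 0.134 by edgeR.

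RPA coats the single strands that the helicase exposes. RPA1, its large subunit, is at 207, 195 and 203 CPM in shControl and at 221, 208 and 215 CPM in shSTBD1. RPA1 has a log2 fold change of 0.090 (SE 0.034, adjusted p = 0.0881 by edgeR), and its groups do not overlap. RPA2 and RPA3 lie at 0.044 each on the log2 scale, with overlapping groups, and RPA3 turns negative on TPM. CAF-1 places histones on the new strands behind the fork. Its large subunit CHAF1A is at 107, 98.6 and 97.5 CPM in shControl and at 97.7, 106 and 100 CPM in shSTBD1. CHAF1A has a log2 fold change of 0.0072 (SE 0.043, adjusted p = 0.938 by edgeR), and its sign turns negative on TPM. CHAF1B, the second subunit, lies at -0.0023 (SE 0.043) on the same scale and turns positive on TPM.

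**Figure D3:**
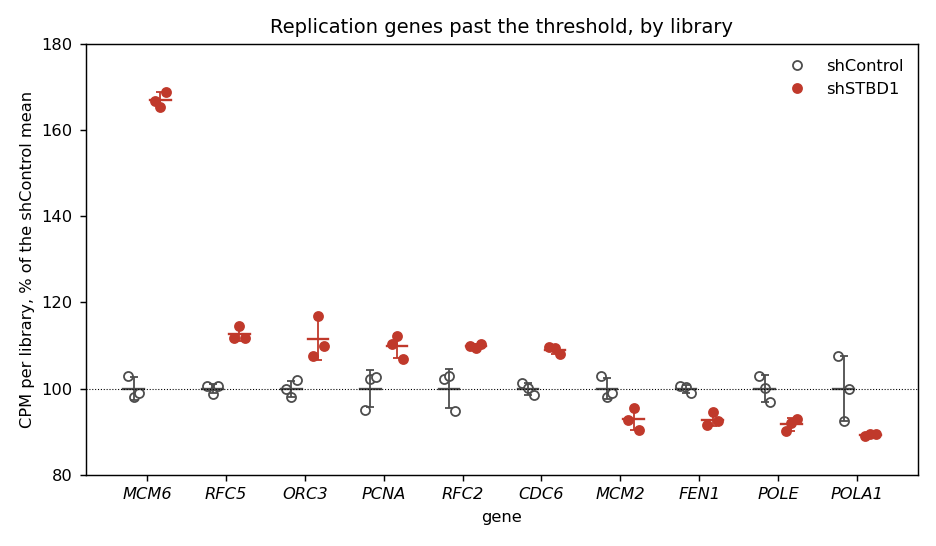
CPM of the 10 genes past the threshold in each library, as a percentage of the shControl mean of that gene, with group means as lines and standard deviations as bars (3 libraries per group); the axis starts at 80%. The shSTBD1 points of MCM6 lie far above those of the other 9 genes, whose groups are apart by a small margin.

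The same pathway holds genes outside this set. Of 39 other replication genes, picked by role, 1 is higher (2.56%, against 8.22% of all genes tested) and 5 are lower (12.8%, against 7.54%), and their median log2 fold change is -0.038. The lower genes named by the smallest p are MCMBP, CHTF8 and POLE3. MCMBP, which binds the MCM proteins outside chromatin and stabilises them, is at 108, 114 and 113 TPM in shControl and at 103, 97.7 and 97.95 TPM in shSTBD1. MCMBP has a log2 fold change of -0.16 (SE 0.030, adjusted p = 0.00197 by edgeR), opposite in sign to that of MCM6. CHTF8, a subunit of an alternative clamp loader, has one of -0.20 (SE 0.039, adjusted p = 0.00243 by edgeR), and POLE3, a small histone-fold subunit of polymerase epsilon, has one of -0.12 (SE 0.034, adjusted p = 0.0199 by edgeR). The POLE3 call holds in 9 of 18 alternative settings, against 17 for CHTF8 and 15 for MCMBP. The higher gene is RNASEH2A, which encodes the catalytic subunit of the nuclease that cuts RNA in RNA–DNA hybrids. RNASEH2A has a log2 fold change of 0.29 (SE 0.056, adjusted p = 0.00221 by edgeR) in counts. Its TPM of 26.9, 30.2 and 31.2 in shControl and 39.6, 33.7 and 27.6 in shSTBD1 overlaps, so the level per length does not separate the groups. The RNASEH2A call holds in 14 of 18 alternative settings, among them all 6 fits that leave out 1 library.

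How far each call holds depends on the unit and on the libraries. MCM6 is past the threshold in all 18 alternative settings, with log2 fold changes from 0.70 to 0.77 and a largest adjusted p of 0.00139. RFC5 is past it in 14 of 18, including all 6 fits that leave out 1 library. PCNA and POLE are past it in 12 of 18, CDC6 in 11, MCM2, ORC3 and FEN1 in 9, POLA1 in 7 and RFC2 in 6. In the 4 settings that use TPM or RSEM's effective length, MCM6 is the only called gene of the 45, while the other 9 keep their direction. Over all genes, offsets for effective length leave 3.28% called, against 15.8% without them, so fewer genes pass in general. Leaving out an shSTBD1 library lowers the share called over all genes from 15.8% to 9.84%, 8.90% and 9.46% for replicates 1, 2 and 3. Leaving out shControl replicate 1, 2 or 3 gives 16.2%, 14.0% or 11.5%, so the share does not fall in every fit. Without shSTBD1 replicate 2, MCM6 and RFC5 are the only calls among the 45, and without shSTBD1 replicate 1 they are joined by ORC3 alone. Without shControl replicate 3, the calls are MCM6, RFC5, PCNA and POLE, and without shSTBD1 replicate 3 they are those 4 and CDC6. Without shControl replicate 1, 7 of the 45 are higher and 3 lower, and without shControl replicate 2, 6 are higher and 5 lower.

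**Figure D4:**
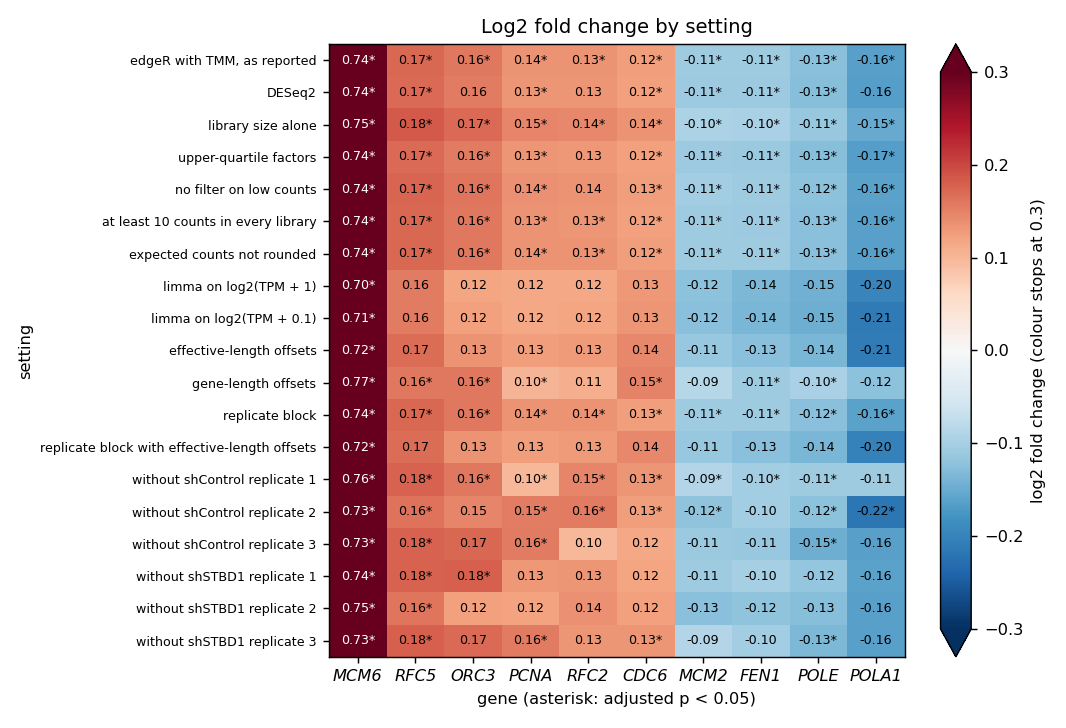
Log2 fold change of the 10 called genes (columns) under the reported fit and 18 alternatives (rows), with an asterisk for an adjusted p under 0.05 and a colour scale that stops at 0.3. MCM6 carries an asterisk in all rows and RFC5 in all but 4 of the 18 alternatives, while the sign of each gene is the same in all rows.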

How the data were processed

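RNA-seq of 3 shControl and 3 shSTBD1 HCT116 libraries is analysed, grouped by their labels. Per the submitters' processing notes and the methods, the authors use STAR 2.7.1a for alignment against hg38 (Ensembl release 93) and RSEM 1.3.1 for abundance. The deposited expected counts are not normalized, and the deposited TPM values are scaled per library by the authors. RSEM's effective length and posterior standard deviation are used as given. Whether counting uses strand is not stated. None of the 45 genes has a posterior standard deviation above 5% of its count.

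Expected counts are rounded, filtered by filterByExpr, scaled by TMM and tested in edgeR with quasi-likelihood fits (edgeR 4.0.16, limma 3.58.1, DESeq2 1.42.0, R 4.3.3), with Benjamini-Hochberg adjustment over 15566 genes. The fit has no replicate term, and the methods name none. The common biological coefficient of variation is 3.37%. Single values are compared by a two-sided exact permutation test, for which 6 libraries allow 10 divisions. Scripts were tested on simulated data.

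The genes and lists were chosen with earlier results of these data known. Library values are given for each gene of the set past the threshold, for the gene with the smallest p in each role with none, and for STBD1. At most 3 higher and 3 lower other replication genes are given as fits, with the TPM of each library added for MCMBP and RNASEH2A. Gene positions and 3′ UTRs come from GRCh38 with GENCODE 44, a later annotation, and promoter windows from RefSeq. All 45 and 39 symbols matched. The 45 genes hold between 356 and 12404 counts in a library, and standard errors tend to be wider at low counts (0.069 for POLE2, 0.031 for MCM4). The widest, 0.085 for POLD3, does not belong to the gene with the fewest counts. Alternatives are other scalings, filters, tools and units, length offsets, a replicate block and leaving out each library.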

Additional observations from a re-analysis of the deposited data

How the results depend on the processing

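The reported fit calls 6 of the 45 genes higher and 4 lower. Limma on log2(TPM + 1) and on log2(TPM + 0.1), effective-length offsets, and the replicate block with effective-length offsets each call 1 higher and 0 lower. Gene-length offsets call 7 higher and 2 lower, and DESeq2 calls 4 and 3. Leaving out 1 library gives 2 to 7 higher and 0 to 5 lower. The cause of these differences was not tested. Over all genes, the fit calls 1280 higher and 1173 lower, DESeq2 761 and 698, limma on log2(TPM + 1) 178 and 114, and effective-length offsets 287 and 224, and leaving out 1 library gives 785 to 1333 higher and 624 to 1244 lower.

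The replicate block alone calls 6 higher and 4 lower and changed no call among the 45 genes. Deviations of same-numbered libraries correlate at 0.071, 0.068 and -0.0084, so the numbers are not taken as pairs.

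The sign turns in at least 1 setting for 20 of the 45 genes, of which 0 pass the test in the reported edgeR fit. With library size alone, the log2 fold changes of MCM3, MCM5, MCM7, GINS2 and CHAF1B are 0.0017, 0.0016, 0.0077, 0.0013 and 0.0082, and with gene-length offsets 0.0060, 0.0025, 0.0074, 0.0011 and 0.029, while RFC4 is at -0.0086 and RPA3 at -0.019 with the latter. With limma (1 and 0.1 added), effective-length offsets, and the replicate block with those offsets, CHAF1A is at -0.034, -0.035, -0.030 and -0.024, CHAF1B at 0.023, 0.025, 0.035 and 0.035, POLD1 at 0.0063, 0.0064, 0.018 and 0.017, and RPA3 at -0.013, -0.013, -0.0029 and -0.0023. With 1 library left out, the range is -0.045 to 0.025 for MCM3, -0.032 to 0.0067 for MCM5, -0.027 to 0.031 for MCM7, -0.052 to 0.050 for ORC2, -0.012 to 0.083 for ORC4, -0.047 to 0.0074 for CDT1, -0.11 to 0.025 for CDC45, -0.011 to 0.051 for GINS1, -0.054 to 0.031 for GINS2, -0.073 to 0.023 for GINS3, -0.030 to 0.068 for GINS4, -0.11 to 0.0072 for RFC3, -0.027 to 0.071 for RFC4, -0.060 to 0.0023 for POLA2, -0.019 to 0.079 for PRIM2, -0.0096 to 0.092 for RPA2, -0.027 to 0.048 for CHAF1A and -0.030 to 0.012 for CHAF1B. STBD1 loses its call in limma on TPM, with adjusted p-values of 0.0646 and 0.0672.

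The groups of 13 of the 45 genes do not overlap on TPM, against 16 on CPM. With 3 libraries per group, a difference that misses the threshold is not shown to be absent.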
